A study of Homo sapiens with 8 samples.

Results

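Alcohol and aldehyde dehydrogenases were followed as 10 genes (ADH1A, ADH1B, ADH1C, ADH4, ADH5, ADH6, ALDH2, ALDH1A1, ALDH1B1 and ALDH3A2) of the 62703 genes in the count matrix, picked by symbol and not by their values. HepaRG is an established human liver line of bipotent progenitors, and terminally differentiated cells of it were kept 7 days in culture and then exposed for 24 h. The question was how the levels of these genes differed between cells given a chemical stressor and cells given its solvent, 0.1% dimethyl sulfoxide (DMSO). RNA was counted cell by cell on the Parse Evercode platform, which marks the RNA of each fixed cell with a combination of barcodes and each cDNA molecule with a unique molecular identifier (UMI).

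Alcohol dehydrogenases (ADH) oxidise alcohols to aldehydes, and aldehyde dehydrogenases (ALDH) oxidise aldehydes to acids. In the liver the class I enzymes ADH1A, ADH1B and ADH1C carry out most ethanol oxidation in the cytosol, and ALDH2 removes the resulting acetaldehyde in mitochondria. ADH5 is the widely expressed glutathione-dependent formaldehyde dehydrogenase, ALDH1A1 makes retinoic acid from retinal, and ALDH3A2 clears fatty aldehydes.

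Besides DMSO and untreated medium, the cultures had received rotenone (0.2 or 0.4 µM), which blocks the mitochondrial respiratory chain, cycloheximide (0.2, 2 or 20 µM), which blocks protein synthesis, or etoposide (0.25, 2.5 or 25 µM), which inhibits topoisomerase II. The others had received tunicamycin (0.001, 0.01 or 0.1 µM), which blocks N-linked glycosylation, brefeldin A (0.001, 0.01 or 0.1 µM), which blocks transport out of the endoplasmic reticulum, tert-butylhydroquinone (tBHQ, 3, 30 or 300 µM), which activates NRF2, or troglitazone. The cell table gives troglitazone as 50 µM, whereas the protocol lists doses from 0.001 to 0.100 µM, so its dose is uncertain. Each sample name of the cell table was counted as 1 culture. Each name ends in a replicate label, which the sources used here do not define further. The main methods describe a single treated culture per condition, and the supplement describes other plates for the Parse cells. Whether the replicates are separate cultures is not given. The spread between sample names may thus be technical, and p-values measure only that spread. Each name opens with a number that the sources used here do not define, here called its set (3 to 6 in the cultures used). After removal of cells with fewer than 500 genes or more than 20% mitochondrial UMIs, 8406 of 12976 cells remained, and 38 of 47 sample names held at least 30 of them and were used, in 20 conditions. The used cultures held 37 to 1434 cells and 1741603 to 97081214 UMIs, with 15942 to 184833 UMIs in the median cell, and mitochondrial genes took 2.29% to 17.7% of their UMIs. The 3-round barcode of 1735 of the 12976 cells also occurred in another of the 8 sublibraries. Leaving such cells out kept the number of members past the test in both comparisons that called members (6 and 2). Over all genes the calls went from 3694 to 3482 at 20 µM cycloheximide and from 12167 to 11857 at 0.4 µM rotenone. All cells come from the same line, and of the 4 DMSO cultures (sets 3, 4, 5 and 6 with 250, 127, 311 and 93 cells) all showed the 14 hepatocyte markers (ALB at 5048 to 16059 UMIs of the gene per 1000000 UMIs, CPM), while of the 10 biliary markers KRT7 and EPCAM stayed below 1 CPM, KRT19 was at 66.9 to 116 and ANXA4 at 149 to 190.

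The 6 ADH genes lie in a row on the minus strand of chromosome 4 in GRCh38 (GENCODE 44), from ADH5 at chr4:99070978-99088801 through ADH4 (99123657 to 99157792), ADH6 (99202638 to 99219537), ADH1A (99276369 to 99291003) and ADH1B (99304971 to 99321401) to ADH1C (99336497 to 99352746). Of the aldehyde dehydrogenases, ALDH2 is at chr12:111766887-111817532 on the plus strand, ALDH1B1 at chr9:38392702-38398661 on the plus strand, ALDH1A1 at chr9:72900671-73080442 on the minus strand, and ALDH3A2 at chr17:19648136-19685760 on the plus strand. The coding sequences of ADH1A, ADH1B and ADH1C are 93.9% to 95.6% identical, so reads of these 3 genes may have been split uncertainly between them, whereas no other pair of the ADH genes exceeds 68.4%. An antisense RNA gene, ENSG00000246090, runs across ADH4, ADH6 and ADH1A on the opposite strand, and SLC47A2 overlaps ALDH3A2 in the same way. Whether the counting used strand is not given in the sources used here, and without it the reads of such pairs cannot be told apart.

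The promoters of members with widely differing levels and of a steady one are shown because they differ in their CpG sites. RefSeq (GRCh38.p14) gave a window of 250 bases before to 50 bases after the gene start for 9 of the 10 members, ALDH2 excepted. In the sequences, read 5′ to 3′ on the gene's strand, capitals mark CG.
ADH1B, chr4:99321352-99321651, minus strand: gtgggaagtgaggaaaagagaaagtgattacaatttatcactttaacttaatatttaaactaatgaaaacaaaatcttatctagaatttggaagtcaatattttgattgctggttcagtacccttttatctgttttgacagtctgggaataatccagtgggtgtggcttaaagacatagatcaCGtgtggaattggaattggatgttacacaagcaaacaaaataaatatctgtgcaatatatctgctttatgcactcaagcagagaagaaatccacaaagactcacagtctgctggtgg
ADH1A, chr4:99290936-99291235, minus strand: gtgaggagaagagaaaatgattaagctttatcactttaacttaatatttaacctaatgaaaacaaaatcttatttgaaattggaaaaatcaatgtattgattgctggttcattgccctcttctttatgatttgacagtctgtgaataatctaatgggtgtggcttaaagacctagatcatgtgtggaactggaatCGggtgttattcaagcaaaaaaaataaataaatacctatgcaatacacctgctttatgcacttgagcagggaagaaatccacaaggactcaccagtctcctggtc
ADH4, chr4:99144248-99144547, minus strand: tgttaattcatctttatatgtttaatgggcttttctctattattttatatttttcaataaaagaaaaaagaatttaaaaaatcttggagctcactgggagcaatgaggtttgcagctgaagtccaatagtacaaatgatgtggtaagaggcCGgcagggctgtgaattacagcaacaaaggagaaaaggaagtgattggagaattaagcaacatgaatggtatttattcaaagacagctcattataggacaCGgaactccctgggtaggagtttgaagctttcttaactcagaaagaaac
ADH5, chr4:99088739-99089038, minus strand: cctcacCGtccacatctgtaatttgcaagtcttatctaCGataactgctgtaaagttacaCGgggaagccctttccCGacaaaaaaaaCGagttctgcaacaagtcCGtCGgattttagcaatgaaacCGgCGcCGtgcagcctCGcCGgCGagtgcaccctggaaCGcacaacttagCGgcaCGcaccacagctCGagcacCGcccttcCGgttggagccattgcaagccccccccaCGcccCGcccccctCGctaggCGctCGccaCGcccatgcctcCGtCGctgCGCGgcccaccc
The ADH1B and ADH1A windows hold 1 CG each, that of ADH4 holds 2 and that of ADH5 holds 29. The ADH4 window starts inside the GENCODE span of the gene and not at its 5′ end. Of the windows not printed, ADH6 holds 2 CG, ADH1C 6, ALDH1A1 7 and ALDH1B1 27, and the 2 windows of ALDH3A2 hold 12 and 27. Those of ADH6 and ALDH1A1 and the ALDH3A2 window with 27 CG also start inside the GENCODE spans of their genes. The median of all 35116 promoter windows is 14 CG. The 3 class I windows are 81.3% to 82.2% identical to each other. CCAAT, searched on both strands, occurs in all 3 and in 34.6% of all windows, and CACGTG occurs in those of ADH1B and ADH1C and in 7.26% of all windows.

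In DMSO cells the members spanned a wide range of levels, given as CPM of the culture. ALDH1A1 was at 260, 252, 317 and 382 CPM in sets 3, 4, 5 and 6, with a mean of 303 ± 60.2 (SD, n = 4). ALDH3A2 stood at 294, 204, 237 and 250 CPM (mean 246 ± 37.2), and ADH1B at 159, 123, 261 and 330 CPM (mean 219 ± 94.7), so that the ranges of these 3 genes overlapped. The mitochondrial ALDH2 was at 50.1, 46.5, 61.1 and 76.4 CPM, and ADH5 at 53.2, 45.4, 48.5 and 53.1 CPM. ADH4, which oxidises retinol as well as ethanol, was at 29.2, 48.9, 38.7 and 49.4 CPM, and ADH6 at 31.0, 24.3, 47.7 and 31.5 CPM. The other mitochondrial acetaldehyde dehydrogenase, ALDH1B1, was at 12.0 to 22.6 CPM, ADH1A at 2.15 to 11.0 and ADH1C at 1.17 to 4.01. ADH1B gave nearly all class I UMIs, with 93.2% to 99.2% of them over the 38 cultures.

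Levels of different genes were compared per kilobase of exon, taken as the union of the exons of all annotated transcripts of a gene. This length was 2.84 kb for ALDH1A1, 10.7 kb for ADH1B and 15.3 kb for ALDH3A2, so the order given here depends on it. Whether UMI counts grow with this length was not tested, and the sources used here do not say whether intronic reads were counted. On this scale ALDH1A1 led in DMSO at 107 ± 21.2 CPM per kb (SD, n = 4), and its lowest culture (88.7) lay above the highest value of any other member. ADH1B followed at 20.5 ± 8.87, ADH4 at 16.9 ± 3.91 and ALDH3A2 at 16.0 ± 2.43 CPM per kb, and the ranges of these 3 overlapped. ADH5 at 10.3 ± 0.787 CPM per kb lay below all cultures of those 3, and its range overlapped that of ADH6 (7.64 ± 2.25). ALDH2 (6.02 ± 1.38) and ALDH1B1 (5.30 ± 1.52) overlapped each other and ADH6. ADH1A (2.58 ± 1.70) and ADH1C (1.63 ± 0.792) were lowest and overlapped each other, and the highest ADH1A culture (4.95) lay above the lowest ones of ALDH2 and ALDH1B1.

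**Figure D1:**
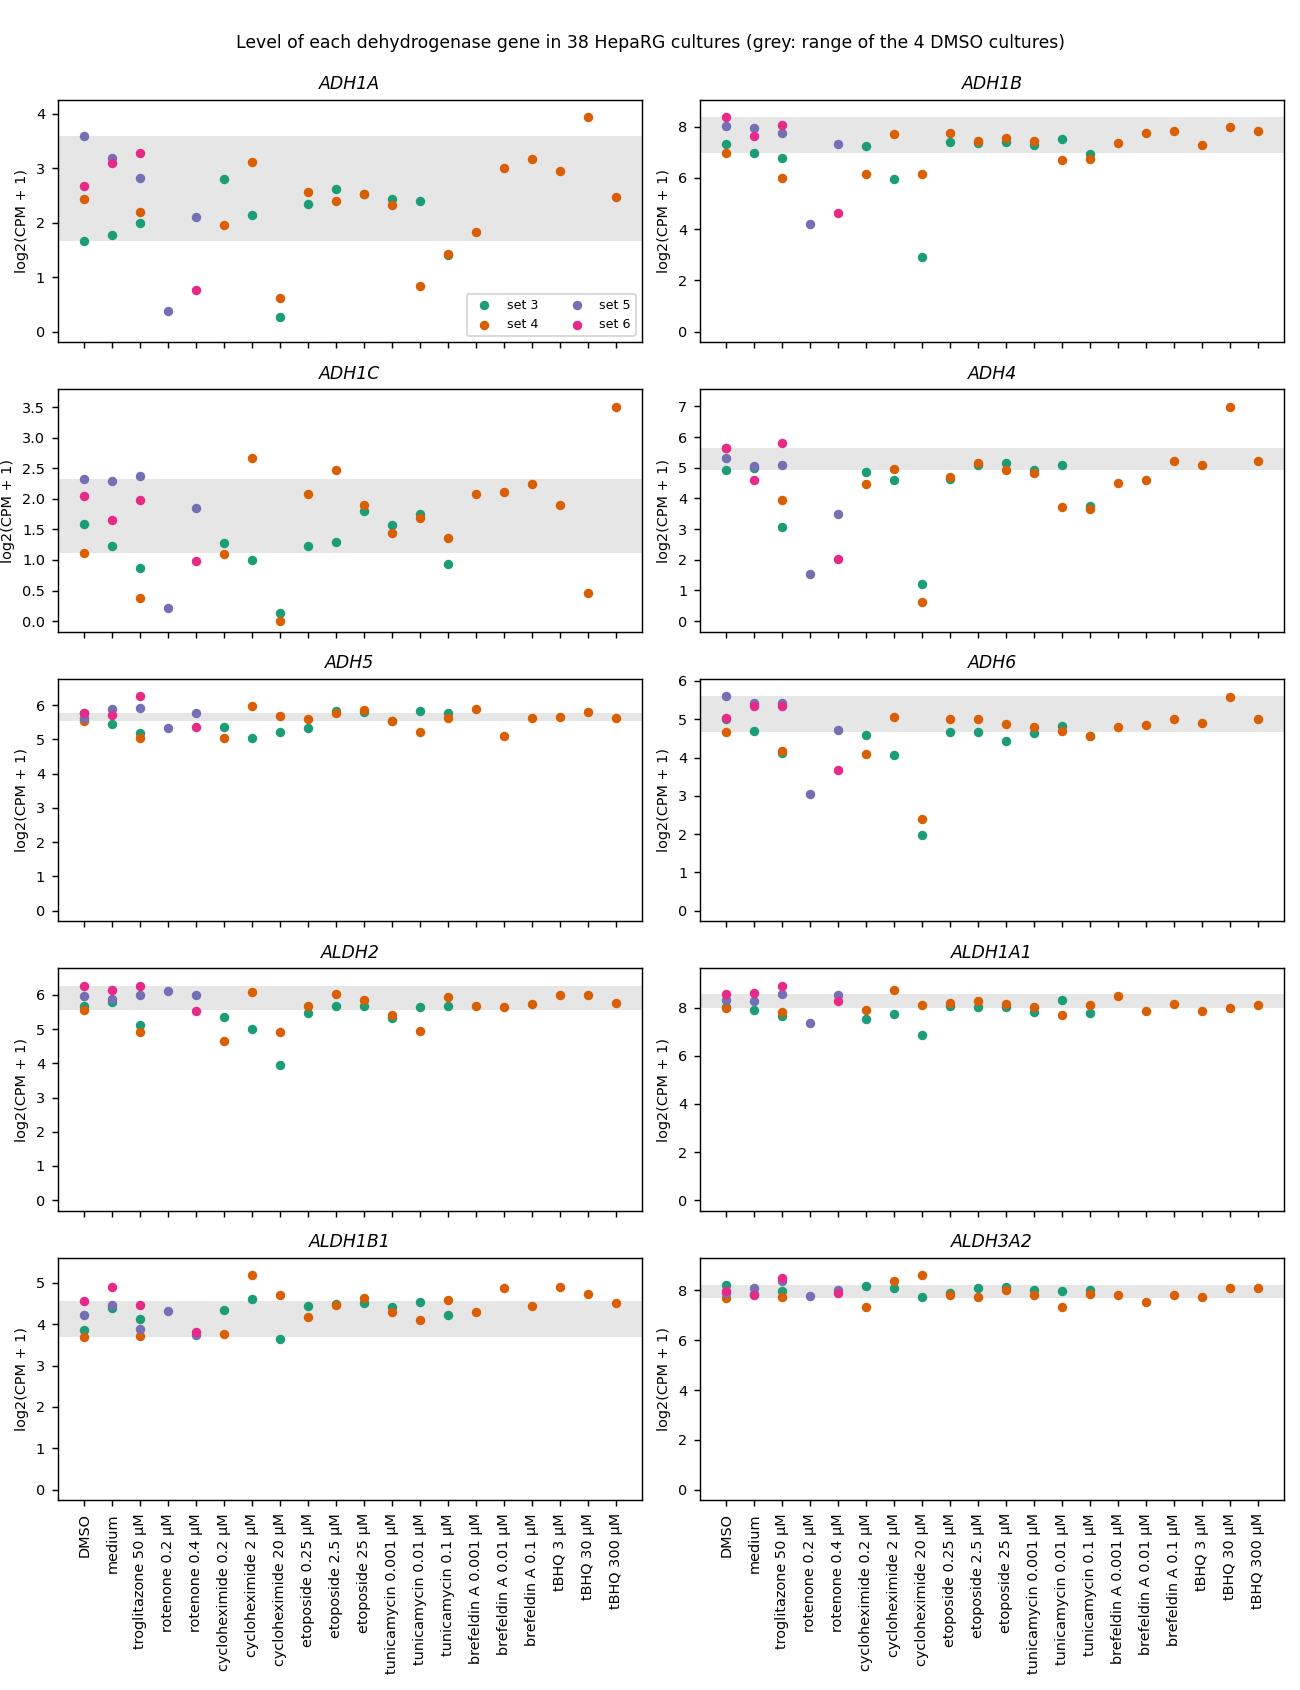
Level of each of the 10 genes as log2(CPM + 1) on the y axis in the 20 conditions on the x axis, with 1 point per culture coloured by set and the range of the 4 DMSO cultures in grey. ADH4, ADH6 and the class I genes lie below the grey band at 20 µM cycloheximide and 0.2 µM rotenone, with the set 4 cycloheximide culture nearest to it for ADH1B, while ADH5 and ALDH3A2 stay within a 2.40-fold and a 2.47-fold range over all 38 cultures.

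ADH4, ADH6, the class I genes, ALDH2, ALDH1A1 and ALDH1B1 had their lowest level of the 38 cultures in a culture with 20 µM cycloheximide. ADH4, ADH6, ADH1A, ADH1B, ADH1C and ALDH2 fell past the test, and ADH5, ALDH1A1, ALDH1B1 and ALDH3A2 did not pass it. ADH4 was at 1.30 CPM in set 3 and 0.535 in set 4, against 29.2 to 49.4 in DMSO. ADH1B was at 6.61 and 69.6 CPM, against 123 to 330. The 2 treated cultures thus lay below all DMSO cultures for both genes, but differed widely between themselves for ADH1B.

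By edgeR's quasi-likelihood test against the 4 DMSO cultures, adjusted by Benjamini-Hochberg over all genes tested, ADH4 fell by 5.17 on the log2 scale (SE 0.430, adjusted p = 3.6e-05). ADH6, a class V enzyme, was at 2.91 and 4.28 CPM and fell by 3.36 (SE 0.391, adjusted p = 0.000173). ALDH2 was at 14.5 and 29.4 CPM, below its DMSO range of 46.5 to 76.4, and fell by 1.497 (SE 0.325, adjusted p = 0.00779). For ADH1B the fall was 2.69 (SE 0.729, adjusted p = 0.0232), and it was lost with DESeq2 or with DMSO cultures of the same sets alone. ADH1A and ADH1C passed the test as well (adjusted p = 0.0074 and 0.00528), but on 3 and 1 UMIs in the treated cells, against 437 and 178 in DMSO. Their ratios of summed CPM to DMSO were 0.0314 (95% exact interval 0.0064 to 0.0924) and 0.0257 (0.0006 to 0.145), which cover counting error only.

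The remaining members gave smaller or no differences at this dose. ALDH1A1 was at 115 and 271 CPM (log2 difference -0.66, SE 0.314, adjusted p = 0.163), and only set 3 lay below its DMSO range. ADH5 was at 36.5 and 50.9 CPM (log2 difference -0.22, adjusted p = 0.525), ALDH3A2 at 210 and 390 CPM (0.28, adjusted p = 0.478) and ALDH1B1 at 11.5 and 25.2 CPM (0.07, adjusted p = 0.922). These 6 falls among 10 members stood beside 13.2% of the 18706 genes tested that fell and 19.7% that changed in either direction, with a median log2 difference of -0.12 over all genes and -2.09 over the members. In summed counts, fewer cells of a type and less RNA of a gene per cell cannot be told apart. The 14 hepatocyte markers summed to 3372 and 7670 CPM in these cultures and to 11403 to 27601 CPM in DMSO, 13 of the 14 had a UMI in set 4 and all 14 in set 3, and their part in the falls was not tested. The 10 biliary markers (145 and 204 CPM, against 282 to 386) and the 5 endothelial markers (27.7 and 36.4 CPM, against 55.2 to 97.1) also summed to less than in every DMSO culture, whereas the 10 mesenchymal markers at 291 and 196 CPM lay inside their DMSO range. The antisense gene ENSG00000246090 was at 22.9 and 20.3 CPM, below its 44.8 to 90.1 CPM in DMSO.

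Within sets ADH4, ADH6, ADH1A, ADH1B and ALDH2 were each lower than in the DMSO culture of the same set, by amounts that differed between sets. The log2 ratio of ADH4 to the DMSO culture of its own set was -4.48 in set 3 and -6.51 in set 4, and that of ADH1B was -4.59 and -0.82. The set 4 culture held only 37 cells and 1868128 UMIs. Without the set 3 culture 2 members stayed past the test (ADH4 and ADH6), and without that of set 4 there were 7, ALDH1A1 being the seventh. At 0.2 and 2 µM cycloheximide no member passed edgeR's test. At 0.2 µM 5 members (ADH4, ADH5, ADH6, ALDH2 and ALDH1A1) lay below DMSO in both cultures, and 6 members had an unadjusted p under 0.05. Of the 18012 genes tested, 674 had an unadjusted p under 0.05 and 0.0% were called. The share of all genes outside their DMSO range was not counted in any comparison. At 2 µM the 2 cultures parted, with ADH1B at 60.5 CPM in set 3 and 211 in set 4, only ALDH1B1 (23.6 and 35.5 CPM) lay above DMSO in both, and 2 members had an unadjusted p under 0.05 (0.00502% of 19926 genes called).

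**Figure D2:**
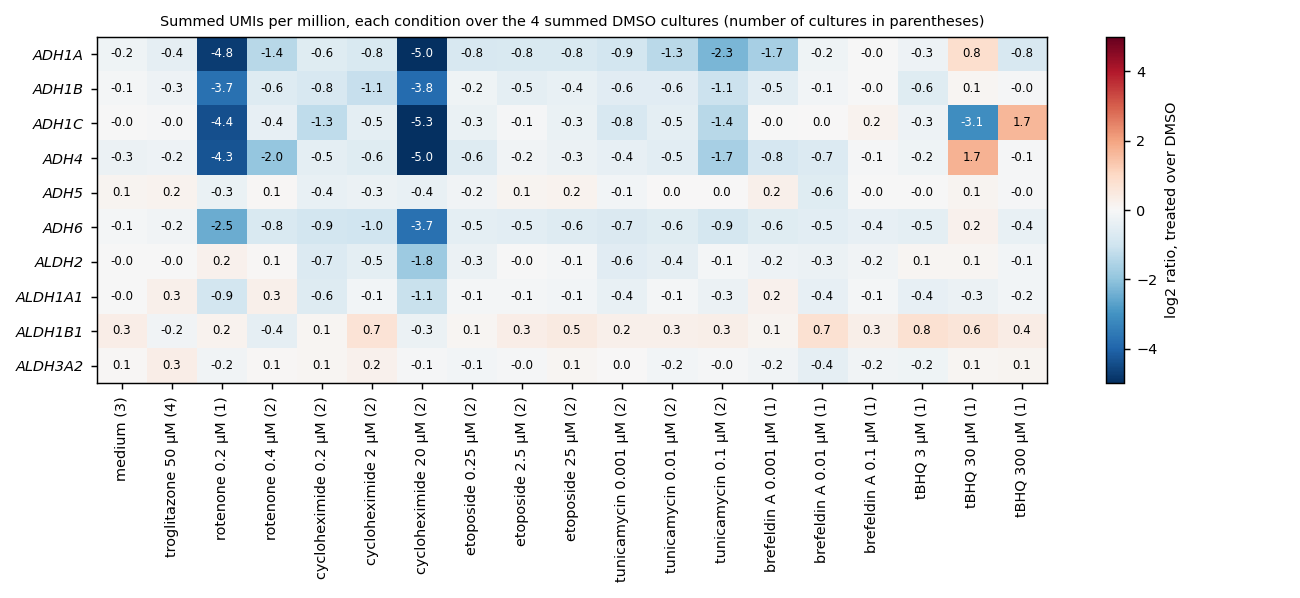
Log2 ratio of CPM for each member (rows) in each condition over the summed DMSO cultures (columns, with the number of cultures), blue for lower and red for higher, with the colour limited to 5 on either side. The darkest blue falls on ADH1A, ADH1B, ADH1C and ADH4 at 0.2 µM rotenone and 20 µM cycloheximide, and ADH5, ALDH1B1 and ALDH3A2 lie between -0.59 and 0.76 in every column.

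At 0.4 µM rotenone ADH4 and ADH6 fell past the test, and the class I genes differed between the 2 cultures. ADH4 was at 10.4 CPM in set 5 and 3.08 in set 6, below the DMSO range of 29.2 to 49.4, and fell by 2.51 on the log2 scale by edgeR's test (SE 0.414, adjusted p = 0.000237). ADH6 was at 25.2 and 11.8 CPM, of which the first lay inside the DMSO range, and fell by 0.85 (SE 0.336, adjusted p = 0.0437). ADH1B was at 160 CPM in set 5 and 23.5 in set 6, a 6.80-fold difference between cultures of the same label, and gave a log2 difference of -1.24 (SE 0.583, adjusted p = 0.0829).

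None of the 4 aldehyde dehydrogenases passed the test at 0.4 µM. ALDH1B1 was at 12.4 and 13.2 CPM, inside its DMSO range of 12.0 to 22.6, with a log2 difference of -0.38 (SE 0.290, adjusted p = 0.273). ALDH1A1 was at 372 and 313 CPM, inside its DMSO range, with a log2 difference of 0.18 (adjusted p = 0.518). ALDH2 (62.7 and 45.1 CPM), ALDH3A2 (261 and 238 CPM) and ADH5 (53.2 and 40.0 CPM) gave log2 differences of -0.11, 0.02 and -0.10 with adjusted p = 0.704, 0.947 and 0.7. This comparison changed most of the transcriptome: 61.4% of 19831 genes were called in either direction and 42.2% fell, so the 2 falls among 10 members are a smaller share than that of all genes. The median log2 difference over all genes was -0.56, against -0.42 over the members. With TMM factors in place of total counts the median of all genes moved to -0.10, the calls from 3794 higher and 8373 lower to 5570 higher and 6078 lower, and ADH6 no longer passed (log2 difference -0.40, adjusted p = 0.336), while ALDH1A1 did, as higher (0.63, adjusted p = 0.0328). ADH6 also lost its call without the DMSO culture of set 5 or 6 or the rotenone culture of set 6 (1 member called each time), and without the rotenone culture of set 5 there were 4 members called. At 20 µM cycloheximide the calls moved from 1220 higher and 2474 lower to 1657 higher and 2177 lower with DESeq2 size factors, with the same number of members called.

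At 0.2 µM rotenone, with 1 culture in set 5, the 6 ADH genes and ALDH1A1 were lower than in either culture at 0.4 µM. Whether the 2 dose labels could have been exchanged was not tested, so each value is given under its label. ADH1B stood at 17.5 CPM against 261 in the DMSO culture of that set and 160 at 0.4 µM in that set. Against the 4 summed DMSO cultures the ratio was 0.0745 (95% exact interval 0.0708 to 0.0784, counting error only), on 1700 UMIs. ADH4 was at 1.90 CPM (ratio 0.0497, 0.0425 to 0.0579) and ADH6 at 7.23 CPM (ratio 0.177, 0.162 to 0.193), and ADH1A had 29 UMIs and ADH1C 15. ALDH1A1 was at 162 CPM, with a ratio of 0.532 (0.520 to 0.543), and lay below every DMSO culture. ALDH2 at 68.7 CPM, ALDH1B1 at 19.02 and ALDH3A2 at 219 lay inside their DMSO ranges.

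In set 5 the 0.4 µM culture exceeded the 0.2 µM culture 9.13-fold for ADH1B, 5.47-fold for ADH4, 3.49-fold for ADH6 and 2.29-fold for ALDH1A1. The order was the other way for ALDH2 (68.7 CPM at 0.2 µM and 62.7 at 0.4 µM) and ALDH1B1 (19.02 and 12.4 CPM). The cultures were alike in depth, with 184833 and 184485 UMIs in the median cell. The 0.4 µM culture of set 6 (45112.5 UMIs in the median cell) was closer to the 0.2 µM culture than to its namesake for ADH1B, ADH4 and ADH6. The hepatocyte markers summed to 11096 CPM at 0.2 µM and to 19146 and 9878 CPM at 0.4 µM in sets 5 and 6, and the mesenchymal markers to 110 CPM at 0.2 µM and to 112 and 96.5 CPM at 0.4 µM, against 186 to 363 in DMSO. The biliary markers summed to 228 to 236 CPM in the 3 rotenone cultures, against 282 to 386 in DMSO, and the endothelial markers to 21.0 to 53.7 CPM, against 55.2 to 97.1. The part of these markers was not tested. ADH1B alone passed 2-fold with at least 50 CPM and 50 UMIs in the higher condition, as 35.6% of 5515 genes did. The antisense gene ENSG00000246090 was at 29.0 CPM there and at 64.4 and 30.9 CPM at 0.4 µM.

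No member passed edgeR's test in the other 10 comparisons with 2 or more cultures, including the lower cycloheximide doses, where 247 to 1457 genes had an unadjusted p under 0.05 and DESeq2 called 0 to 90 genes. At 0.1 µM tunicamycin ADH4 was at 12.5 CPM in set 3 and 11.5 in set 4, both under the DMSO range, with a log2 difference of -1.78 (SE 0.262, unadjusted p = 3.04e-05, adjusted p = 0.282). ADH1A, ADH1B and ADH6 also lay below DMSO in both cultures, 4 members had an unadjusted p under 0.05, and DESeq2 called 1, ADH4. Over all genes 0.00538% of 18577 were called at this dose and 676 had an unadjusted p under 0.05. The share of genes outside their DMSO range was not counted. At 0.001 µM ADH4 and ALDH2 lay just below DMSO in both cultures (2 members at an unadjusted p under 0.05), with 0.0% of 22539 genes called. At 0.01 µM all 10 ranges overlapped (1 member at an unadjusted p under 0.05), with 0.0% of 19586 genes called.

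Etoposide gave no member past the test at 0.25, 2.5 or 25 µM, where 0.0% of 21184, 19022 and 20160 genes were called and 1, 0 and 0 members had an unadjusted p under 0.05. At 0.25 µM ADH4 was at 23.9 and 25.0 CPM, below DMSO, and at 2.5 and 25 µM ADH5 was at 54.1 to 56.8 CPM, above its narrow DMSO range of 45.4 to 53.2. Medium without solvent gave no member past the test either (0.0% of 20212 genes called, 1 member at an unadjusted p under 0.05), and every member's range overlapped that of DMSO. In medium ADH1B was at 125, 248 and 199 CPM in sets 3, 5 and 6. Troglitazone called 0.078% of 17954 genes and no member (none at an unadjusted p under 0.05). ADH1B was at 109 and 62.1 CPM in sets 3 and 4 and at 217 and 265 CPM in sets 5 and 6. ADH4 was at 7.36 and 14.4 CPM in sets 3 and 4 and at 32.8 and 55.0 in sets 5 and 6. ADH1B was lower in sets 3 and 4 than in sets 5 and 6 in DMSO as well, and the hepatocyte markers with troglitazone summed to 8894 and 5619 CPM in sets 3 and 4 and to 20355 and 24618 CPM in sets 5 and 6. DESeq2 called no member in the medium, troglitazone, etoposide, other tunicamycin or lower cycloheximide comparisons.

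Brefeldin A and tBHQ had 1 culture per dose, all in set 4, and so no replicate check. ADH4 at 30 µM tBHQ passed 2-fold, at 126 CPM against 38.1 in the summed DMSO cultures (ratio 3.32, 95% exact interval 2.95 to 3.72, counting error only), as 0.67% of 4476 genes did. Of its 335 UMIs, 48.1% came from 1 of the 52 cells and 78.8% from 2 cells, and without the top cell the level was 69.7 CPM. In that culture ADH1A was at 14.3 CPM (38 UMIs, 42.1% of them in 1 cell). ADH1C at 300 µM tBHQ was at 10.4 CPM, where 85.3% of its 34 UMIs came from 1 of 56 cells, and stood at 1.56 CPM without it. No member passed 2-fold at 3 or 300 µM tBHQ, where 0.583% of 4460 and 0.86% of 4420 genes did. None passed at 0.001, 0.01 or 0.1 µM brefeldin A, where 1.58% of 4492, 0.889% of 4497 and 0.272% of 4409 genes did, and ADH1B was at 164, 213 and 229 CPM, inside its DMSO range.

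Over the 38 cultures the members differed in how far they ranged. The highest over the lowest level was 2.40-fold for ADH5, 2.47-fold for ALDH3A2, 3.08-fold for ALDH1B1, 4.19-fold for ALDH1A1 and 5.26-fold for ALDH2. It was 16.4-fold for ADH6, 49.96-fold for ADH1B, 71.6-fold for ADH1A and 236-fold for ADH4, where the lowest levels of ADH1A and ADH4 rest on 2 and 1 UMIs. ADH1C had no UMI in the set 4 culture with 20 µM cycloheximide. The 3 members with the narrowest ranges are those with a promoter window of 27 or more CG, a match noticed after the values were seen. The match uses the ALDH3A2 window with 27 CG, whereas its other window, at the GENCODE start of the gene, holds 12. ALDH2 had no window. Of the 31 cultures given a chemical, ADH4 lay below its DMSO range in 19 and above it in 2, and ADH1B lay below in 11 and above in 0. ADH5 lay below in 12 and above in 10, so this count also depends on how narrow the DMSO range is (45.4 to 53.2 CPM for ADH5). The same counts were not made for all genes.

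Patterns over the 20 conditions, as the Pearson correlation of log2(CPM + 1) in summed counts, were most alike for ADH1A, ADH1B, ADH4 and ADH6. These are descriptions over points, DMSO among them, that differ in depth. How far r rests on the few conditions with the lowest levels was not tested. ADH1B and ADH6 correlated at r = 0.96, ADH1A and ADH4 at 0.94, and ADH4 and ADH6 at 0.92. ADH1C was less close, at 0.48 with ADH1A, 0.51 with ADH4, 0.63 with ADH6 and 0.71 with ADH1B. ALDH1A1 reached 0.77 with ADH6 and 0.76 with ADH1B, while the highest r of ALDH3A2 with a member was 0.40. Among 6576 genes with at least 50 CPM in a condition, ADH1B was most like SLC2A2, the liver glucose transporter (r = 0.97), and UGT2B4, a glucuronosyltransferase (0.96). ADH4 was most like CFHR4, a complement factor H-related protein (0.95), and FABP1, the liver fatty acid-binding protein (0.95). ALDH2 was most like IDH1, cytosolic isocitrate dehydrogenase (0.93), and SERPINA5 (0.92), and ALDH1A1 most like UGT2A3 (0.94) and RIDA (0.87). The nearest genes of ADH5 were C5orf24 (0.88) and ARPC5, an actin-nucleation subunit (0.86), and those of ALDH3A2 only reached 0.67 (TMTC2) and 0.64 (ERAP2).

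Groups of cells within DMSO differed far more than the DMSO cultures did for ADH4, ADH6 and the class I genes. The 781 DMSO cells were clustered on variable genes without the members, which gave 9 clusters. Cluster 7 (103 cells) was called hepatocyte-like, since all 14 hepatocyte markers were above the other cells and ABCB11, the bile salt export pump, was among its 10 leading genes. A member, ADH1A, was also among these 10 genes. ADH1B was at 818 CPM there, with a UMI in 100% of cells, and its cells of single sets ranged from 469 to 891 CPM. ADH4 was at 211 CPM there and at 44.5 CPM or less elsewhere, and cluster 7 held 64.7% of all ADH4 UMIs, 75.5% of those of ADH1A and 59.0% of those of ADH1C in 13.2% of the cells. Cluster 4 (110 cells), with BMP2, ADH1B itself and ONECUT1 among its leading genes and left unnamed, had ADH1B at 448 CPM. In it 12 of the 14 hepatocyte markers were above the other cells, though none was among its 10 leading genes. The markers summed to 24880 CPM in cluster 4, against 48886 in cluster 7. Clusters 7 and 4 gave 40.6% and 40.1% of all ADH1B UMIs.

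In the mesenchymal-like cluster 5 (144 cells, COL3A1 and PDGFRB among the leading genes, 7 of 10 mesenchymal markers above the other cells), ADH1B was at 29.9 CPM, ADH6 at 9.20 and ADH4 at 4.19. ADH1B had a UMI in 38.2% of these cells (95% exact interval 30.2% to 46.7%) at 24928 UMIs in the median cell, against 46841 in cluster 7, so a low share of cells with a UMI cannot be read as expression. ALDH1A1 was highest in cluster 0 (82 cells, led by BAIAP2L2), at 527 CPM, against 396 in cluster 7 and 96.5 in cluster 5. ADH5 kept to 42.1 to 59.7 CPM and ALDH3A2 to 185 to 285 CPM in all 9 clusters. Over the 781 cells the Spearman correlation with ALB was 0.67 for ADH1B, 0.57 for ADH6 and ALDH1A1, 0.44 for ADH4, 0.34 for ALDH2, -0.06 for ADH5 and -0.10 for ALDH3A2, as a description of cells that share 4 cultures.

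**Figure D3:**
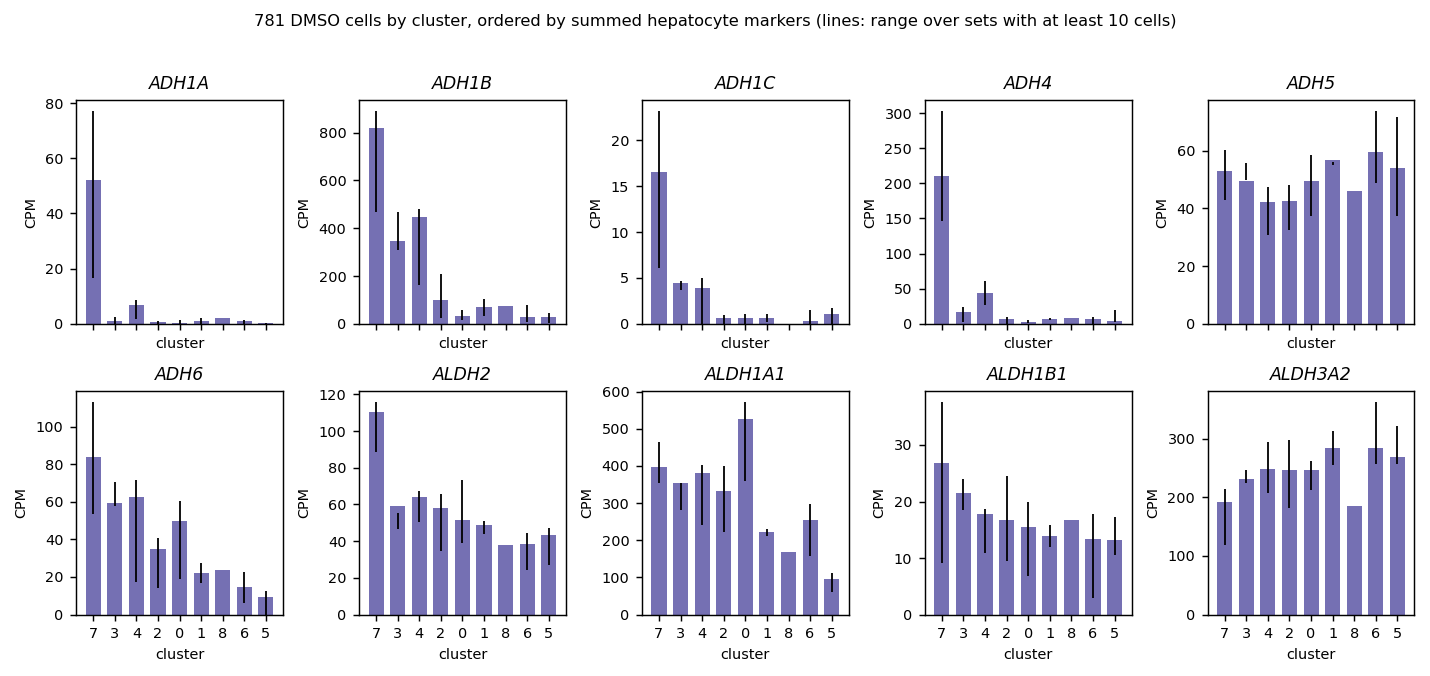
CPM of each member in the 9 clusters of DMSO cells, ordered from left by their summed hepatocyte markers, with lines for the range over sets that hold at least 10 cells of a cluster. Cluster 7, at the left, holds the highest bars of ADH1A, ADH1B, ADH1C, ADH4, ADH6 and ALDH2, and ADH5 and ALDH3A2 are at similar heights in all clusters.

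The falls were also seen as fewer cells with a UMI at equal depth. These shares come from the same UMIs and are not a separate check. After each cell was thinned to 5000 UMIs, with no cell left out, ADH1B had a UMI in 31.8% of 781 DMSO cells (95% exact interval 28.5% to 35.1%), in 3.82% of 262 cells at 20 µM cycloheximide (1.85% to 6.91%), in 6.68% of 449 cells at 0.2 µM rotenone (4.55% to 9.40%) and in 26.8% of 523 cells at 0.4 µM (23.0% to 30.8%). These intervals treat the pooled cells of a condition as independent and do not cover the spread between cultures. By culture, the ADH1B share was 26.8% to 40.9% in DMSO, 2.67% and 10.8% at 20 µM cycloheximide in sets 3 and 4, and 32.0% and 7.27% at 0.4 µM rotenone in sets 5 and 6, of which set 5 gave 413 of the 523 cells. ADH4 had a UMI in 10.4%, 0.382%, 1.34% and 1.91% of the pooled cells, and its share by culture was 8.00% to 12.9% in DMSO and at most 2.42% in the others. ALDH1B1 had a UMI in 9.09% of DMSO cells (6.30% to 10.9% by culture) and in 4.6% and 1.82% at 0.4 µM rotenone in sets 5 and 6. Its CPM in these 2 rotenone cultures lay inside the DMSO range, and it did not pass edgeR's test there. ALDH2 went from 24.8% to 6.49% at 20 µM cycloheximide, and stayed at 25.2% and 23.9% with 0.2 and 0.4 µM rotenone. ALDH1A1 was at 61.1% in DMSO, 34.7% at 20 µM cycloheximide, 47.2% at 0.2 µM and 71.1% at 0.4 µM rotenone, and ALDH3A2 at 66.2%, 59.2%, 64.8% and 65.4%. Before thinning, 58.5% of DMSO cells had an ADH1B UMI and 31.2% an ADH4 UMI. In the median DMSO cell ADH1B stood at 0 to 37.8 CPM by culture, and the 10% of cells with most of them held 36.0% to 64.8% of its UMIs, against 10.2% to 25.3% for ALDH3A2.

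**Figure D4:**
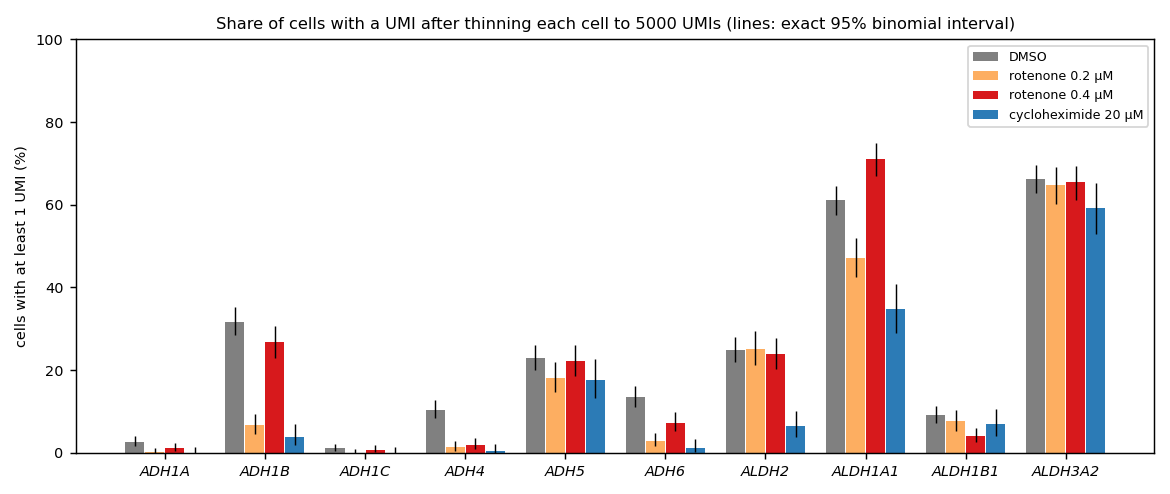
Share of cells with at least 1 UMI of each member, in percent, after thinning to 5000 UMIs per cell, for DMSO, 0.2 and 0.4 µM rotenone and 20 µM cycloheximide, with exact 95% binomial intervals over the pooled cells as lines. Bars of ADH1B, ADH4 and ADH6 are shortest at 20 µM cycloheximide, and those of ALDH3A2 are within 59.2% to 66.2% in all 4 conditions.

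Other genes of alcohol, aldehyde and retinol metabolism, 41 in all, passed the test mostly in the same 2 comparisons. At 20 µM cycloheximide 13 of the 36 tested fell and 2 rose, beside the 19.7% of all genes that were called. HSD17B6, a retinol and steroid dehydrogenase, went from 47.1 to 95.9 CPM in DMSO to 2.50 and 5.89 CPM (a fall of 4.36 on the log2 scale, SE 0.436, adjusted p = 8.2e-05 by edgeR). ALDH1L1, which oxidises formyl-tetrahydrofolate, went from 144 ± 10.6 CPM (SD, n = 4) to 25.9 ± 4.29 (n = 2), CAT, catalase, from 67.4 to 15.1 CPM and RDH5, a retinol dehydrogenase, from 50.4 to 15.2 CPM, all lower past the test. At 0.4 µM rotenone 17 of the 37 tested fell and 2 rose, beside the 61.4% of all genes. ADHFE1, an iron-dependent hydroxyacid dehydrogenase, went from 167 ± 20.6 CPM (n = 4) to 19.4 ± 7.58 (n = 2), a fall of 3.08 (SE 0.283, adjusted p = 3e-06 by edgeR). ACSS3, a mitochondrial acyl-CoA synthetase, fell from 166 to 35.8 CPM, ALDH1L1 from 144 to 32.9 CPM and RDH5 from 50.4 to 14.4 CPM. The 2 that rose with rotenone, named after their values were seen, were ALDH9A1, from 42.0 to 117 CPM, and CAT, to 180 CPM. CAT fell with cycloheximide. In the troglitazone comparison DHRS9 alone was called (1 of 36 tested, higher), and the other 9 comparisons called none of the list.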

How the data were processed

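The authors fixed the cells, marked their RNA over 3 rounds of barcodes and 8 sublibraries with a Parse Evercode kit, aligned reads to GRCh38 with a splice-aware aligner and collapsed UMIs. They deposited 1 matrix of raw UMI counts per gene and cell, a gene table and a cell table. The pipeline version, the annotation, strand use and counting of intronic reads are not given in the paper, labels or file headers used here. The submitters' processing notes name GRCh38.

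Cells under 500 genes or over 20% mitochondrial UMIs were removed, no doublet caller was run, and counts were summed per sample name with at least 30 such cells. The other 9 sample names were left out. UMIs per culture, 1741603 to 97081214, set the precision, and intervals cover counting error only. Conditions with 2 or more cultures were compared with the 4 DMSO cultures by the quasi-likelihood test of edgeR 4.0.16 (R 4.3.3) on total counts, over genes kept by filterByExpr, with Benjamini-Hochberg adjustment over those genes at 0.05. DESeq2 1.42.0, other scalings, filters and left-out cultures were alternatives. On simulated counts for the 0.4 µM rotenone comparison (19802 genes) the test recovered 38% of 2-fold and 100% of 4-fold changes. The simulation changed 50 genes at each fold, with 1 dispersion and no set effect, and gave 3 false calls. In the real comparison 61.4% of genes were called, so these figures may not carry over to it. Conditions with 1 culture were given as ratios with exact conditional binomial intervals. DMSO cells were clustered in scanpy 1.11.5 (2000 variable genes without the members, 30 components, 15 neighbours, Leiden resolution 1), and cells were thinned to 5000 UMIs with a fixed seed. Lengths, positions and overlaps come from GENCODE 44, and promoters from RefSeq.

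The text names the 10 members, up to 4 genes of a list of alcohol, aldehyde and retinol metabolism per comparison with the largest change past the test and at least 50 CPM, the 2 genes most like each member with at least 50 CPM, and cell type markers. Other genes were chosen after their values were seen. The members and lists were chosen with earlier results of these data known.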

Additional observations from a re-analysis of the deposited data

How the results depend on the processing

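No member changed direction while called under any alternative, nor did any of the up to 4 listed genes followed per comparison. The directions of the other listed genes were not checked. Of the values of the single genes followed, 1915 kept their side of the threshold, 18 passed it newly and 13 lost it. Members called at 0.4 µM rotenone (2) became 1 with totals without mitochondrial genes or with all cells, 4 without the filter on low counts, 4 with the replicate block, and 1 to 4 when single cultures were left out. At 20 µM cycloheximide (6) leaving out single cultures gave 2 to 7. Without the filter there was 1 member at 0.2 µM cycloheximide and 3 at 0.1 µM tunicamycin, where DESeq2 and the replicate block gave 1 each, and 14 calls in all in place of 8. At a minimum of 10 CPM, 3 members passed 2-fold at 0.2 µM rotenone and 4 over all conditions with 1 culture.

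Of the 41 listed genes, none of which passed in these comparisons, the setting without a filter called 2 at 0.2 and 2 µM cycloheximide, 1 at 0.001, 2 at 0.01 and 1 at 0.1 µM tunicamycin. The replicate block called 1 at 0.2 µM cycloheximide, 0.25 and 2.5 µM etoposide and 0.01 and 0.1 µM tunicamycin, and 2 at 0.001 µM tunicamycin. The block used the set number, which paired the samples unevenly. Same-set correlations of deviations from group means were 0.30, -0.16 and 0.12 for medium against DMSO in sets 3, 5 and 6. For troglitazone they were 0.32, 0.41, 0.03 and 0.36 in sets 3 to 6. Between different sets, over both treatments, they ran from -0.30 to 0.23. The block values are given without a reading. Over all genes, the 3694 calls at 20 µM cycloheximide became 1840 with the block, 1928 without its set 3 culture and 2323 with DMSO of the same sets, an alternative chosen after seeing the data, as was leaving out shared barcodes. The 14 calls with troglitazone became 55 with DESeq2, 33 without the filter, 25 with the block and 8 to 17 with single cultures left out. The 0 calls at 0.2 µM cycloheximide became 72 without the filter and 176 with the block, and the 1 call at 2 µM became 90 with DESeq2, 241 without the filter and 3 with the block. With DESeq2, without the filter and with the block in that order, etoposide went from 0 to 1, 42 and 122 at 0.25 µM, to 1, 11 and 75 at 2.5 µM and to 21, 170 and 239 at 25 µM, where it was 57 without the DMSO culture of set 3. In the same order tunicamycin gave 0, 52 and 321 at 0.001 µM, 4, 77 and 35 at 0.01 µM and 14, 124 and 125 at 0.1 µM, and medium gave 17 without the filter. Leaving out single cultures gave 0 to 4 calls elsewhere among these comparisons. The cause was not tested.

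Shares of DMSO cells with a UMI were higher at greater depth. At 10000 UMIs and unthinned they were 39.7% and 58.5% for ADH1B, 2.64% and 10.1% for ADH1C, 15.7% and 31.2% for ADH4, 39.1% and 76.1% for ADH5, 24.4% and 50.4% for ADH6, 40.5% and 76.1% for ALDH2, 76.9% and 88.7% for ALDH1A1, 15.0% and 47.5% for ALDH1B1, and 86.9% and 96.5% for ALDH3A2, and unthinned 13.2% for ADH1A. ADH1A and ADH1C rest on 437 and 178 UMIs in all DMSO cells.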

Other observations

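The share of ADH5 in the summed CPM of the 6 ADH genes was 11.2% to 19.2% in the 4 DMSO cultures. It was 76.6% and 40.4% in the 2 cultures with 20 µM cycloheximide, 59.4% at 0.2 µM rotenone, and 20.9% and 50% at 0.4 µM. The sum itself ranged from 47.6 to 494.7 CPM over the 38 cultures, with a median of 276.7 CPM.

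Over the 38 cultures, which share sets and differ in depth, the Pearson correlation of log2 levels with the summed hepatocyte markers was 0.89 for ALDH2, 0.83 for ADH1B, 0.81 for ADH6, 0.74 for ALDH1A1, 0.71 for ADH5, 0.70 for ADH1C, 0.68 for ADH4, 0.67 for ADH1A, 0.53 for ALDH1B1 and 0.31 for ALDH3A2.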
